A study of Mus musculus with 8 samples.

Results

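Wasting muscle switches on a small set of genes, and 10 of them were followed here in the muscle of old mice that lack GRSF1: the ubiquitin ligase genes *Fbxo32*, *Trim63*, *Fbxo30*, *Fbxo40* and *Fbxo31*, the FoxO transcription factor genes *Foxo1*, *Foxo3* and *Foxo4*, the growth inhibitor gene *Mstn* and the stress gene *Gadd45a*. All probes that the array assigns to a mouse RefSeq transcript of these genes were taken, which gave 13 of 56605 probes, for 10 of 22911 named genes. All 13 passed the detection filter, among 38888 tested probes. None of the 13 differed between genotypes at the threshold used, and the genotypes did not overlap in 1 of them, *Gadd45a*, a share near the 9.35% of all probes without overlap.

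RNA came from 3 Grsf1cKO and 3 WT males aged 17 months. The mutants descend from the Grsf1tm1a line, lost the LacZ and Neo cassettes after a cross with FLPo mice, and have a *Grsf1* gene whose exons IV and V are floxed and are removed by Myf5Cre. Cre under *Myf5* acts in the muscle lineage from its progenitors on, and the loss of *Grsf1* in single cell types was not measured here. No further genotype of the WT controls is given in the labels, which call the muscle vastus intermedius, while the study's methods name the rectus femoris, another head of the quadriceps. In whole muscle RNA, fewer cells of a type and less RNA per cell cannot be told apart.

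Each mouse was measured on an Agilent 1-color array, and WT 1 and Grsf1cKO 1 were measured again on another, which makes 8 arrays. The software called 66.3% to 73.1% of probes well above background on 7 arrays and 88.9% on the repeat array of Grsf1cKO 1. Signals are given as log2 of the quantile-normalized intensity, in which 1 unit is a factor of 2, and a level may be compared between mice for the same probe only. The *Grsf1* signal was 12.15, 12.02 and 12.08 in Grsf1cKO 1, 2 and 3, against 14.30, 14.25 and 14.27 in WT 1, 2 and 3, a fold change of -2.19 on the log2 scale (limma, adjusted p = 0.00328). All 14 skeletal muscle marker genes were well above background in all 6 mice. How many mice there are limits how precise a value can be, and the median standard error of a fold change over all tested probes was 0.14 on the log2 scale.

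In skeletal muscle, insulin and IGF signals act through Akt, which phosphorylates FoxO factors and keeps them out of the nucleus. When that signal falls, FoxO factors enter the nucleus and switch on ubiquitin ligase genes, whose products tag muscle proteins for the proteasome. Myostatin restrains growth through activin receptors and SMAD proteins, and lowers Akt activity, while denervation, fasting and stress also raise *Gadd45a*.

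The promoters of *Trim63* and *Gadd45a* are printed because *Trim63* is the ligase gene with a FoxO element in its window and *Gadd45a* the member with the largest difference between genotypes. Both are RefSeq sequences of GRCm38.p6, 250 bases up to the start site, read 5′ to 3′ on the strand of the gene, for *Trim63* chr4:134314870-134315119 (plus strand) and for *Gadd45a* chr6:67037408-67037657 (minus strand). Capitals mark the motifs described in the next paragraph.
*Trim63*: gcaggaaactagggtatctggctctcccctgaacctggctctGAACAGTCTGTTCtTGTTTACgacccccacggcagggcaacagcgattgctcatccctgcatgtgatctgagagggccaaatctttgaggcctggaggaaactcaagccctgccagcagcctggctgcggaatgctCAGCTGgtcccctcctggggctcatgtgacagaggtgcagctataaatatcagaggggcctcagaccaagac
*Gadd45a*: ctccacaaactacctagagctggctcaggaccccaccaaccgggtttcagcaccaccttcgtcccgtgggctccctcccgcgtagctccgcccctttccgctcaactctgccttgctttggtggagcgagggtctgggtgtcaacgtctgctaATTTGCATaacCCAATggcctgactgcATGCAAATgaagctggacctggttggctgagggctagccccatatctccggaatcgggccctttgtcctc

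Windows of 300 bases, from 250 before to 50 after a start site, were found for 8 of the 10 members, 9 windows in all because *Fbxo40* has several starts. *Fbxo32* and *Foxo4* had no entry. The windows were searched on both strands for the FoxO element TGTTTAC, the glucocorticoid receptor element (GNACA and TGTNC with any 3 bases between them), the muscle E-box CAGCTG, the CCAAT box and the octamer ATTTGCAT. Of 32851 promoter windows of this length, 3.65% held the FoxO element, 0.475% the glucocorticoid receptor element, 16.3% the E-box, 37.4% the CCAAT box and 1.74% the octamer. In the *Trim63* window, the first stretch of capitals is the glucocorticoid receptor element, from -208 to -196 relative to the start site, the next is the FoxO element from -194 to -188 with 1 base between them, and the last is the E-box from -72 to -67. The *Gadd45a* window holds an octamer on each strand, from -97 to -90 and from -70 to -63, and a CCAAT box between them from -86 to -82. No FoxO element was found in the windows of the other 7 members. A match describes the letters of a window and says nothing of binding in these mice.

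*Fbxo32* encodes atrogin-1, the F-box subunit that brings eIF3-f and MyoD to the SCF ubiquitin ligase. Its log2 signal was 14.26, 13.61 and 13.94 in Grsf1cKO 1, 2 and 3, against 14.00, 14.29 and 13.60 in WT 1, 2 and 3. The highest and the lowest mouse were both WT, so the genotypes overlapped completely. The fold change was -0.03 ± 0.24 (SE, log2), which leaves a 95% interval for the ratio from 0.657 to 1.47 (limma, adjusted p = 0.998). The spread of *Fbxo32* between mice of a genotype, a pooled SD of 0.34, was wider than that of 78.5% of tested probes. Both pairs of arrays of the same RNA differed by far less than the mice did, by 0.04 for WT 1 and 0.06 for Grsf1cKO 1.

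*Trim63* encodes MuRF1, a RING-finger ligase that tags myosin heavy chain and other thick filament proteins. The brighter of its 2 probes read 16.41, 15.94 and 15.99 in Grsf1cKO 1, 2 and 3, against 16.17, 16.13 and 15.96 in WT 1, 2 and 3. Grsf1cKO 1 was the highest mouse and Grsf1cKO 2 the lowest. Between genotypes the difference was 0.03 ± 0.15 (SE, log2; limma, adjusted p = 0.998), and the 95% interval of the ratio ran from 0.787 to 1.32. The other probe read 14.70, 14.30 and 14.35 in the Grsf1cKO mice and 14.37, 14.47 and 14.30 in the WT mice, with a fold change of 0.07 ± 0.13. The probes placed Grsf1cKO 1 highest alike, and leaving out that mouse turned both fold changes below 0, to -0.12 and -0.06.

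The fold changes of 2 other F-box genes were also near 0. *Fbxo30* encodes MUSA1, an F-box protein induced in denervated muscle and held down by BMP signals. Its signal was 9.48, 9.11 and 9.53 in the Grsf1cKO mice and 9.41, 9.31 and 9.19 in the WT mice, a fold change of 0.07 ± 0.14 (SE, log2). *Fbxo40*, a muscle F-box gene whose product targets IRS1, read 9.79, 10.00 and 10.01 against 9.77, 10.01 and 9.90, a fold change of 0.04 ± 0.11. The genotypes overlapped in both genes, and the adjusted p was 0.998 for both (limma).

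*Fbxo31*, whose product directs cyclin D1 to degradation, had the lowest unadjusted p of the ligase genes. Its signal was 16.07, 15.90 and 15.88 in Grsf1cKO 1, 2 and 3, against 16.26, 15.98 and 16.15 in WT 1, 2 and 3. Grsf1cKO 2 and 3 lay below every WT mouse, and Grsf1cKO 1 lay above WT 2. This gave a fold change of -0.18 ± 0.11 (SE, log2), with an unadjusted p of 0.165 and an adjusted p of 0.996 in limma. The sign was negative in all 14 other settings and in all 6 fits without a mouse, where it ran from -0.26 to -0.11. Among the 14, other detection filters, an intensity trend, a block for the replicate number and the methods' *z*-test cannot move the fold change.

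**Figure D1:**
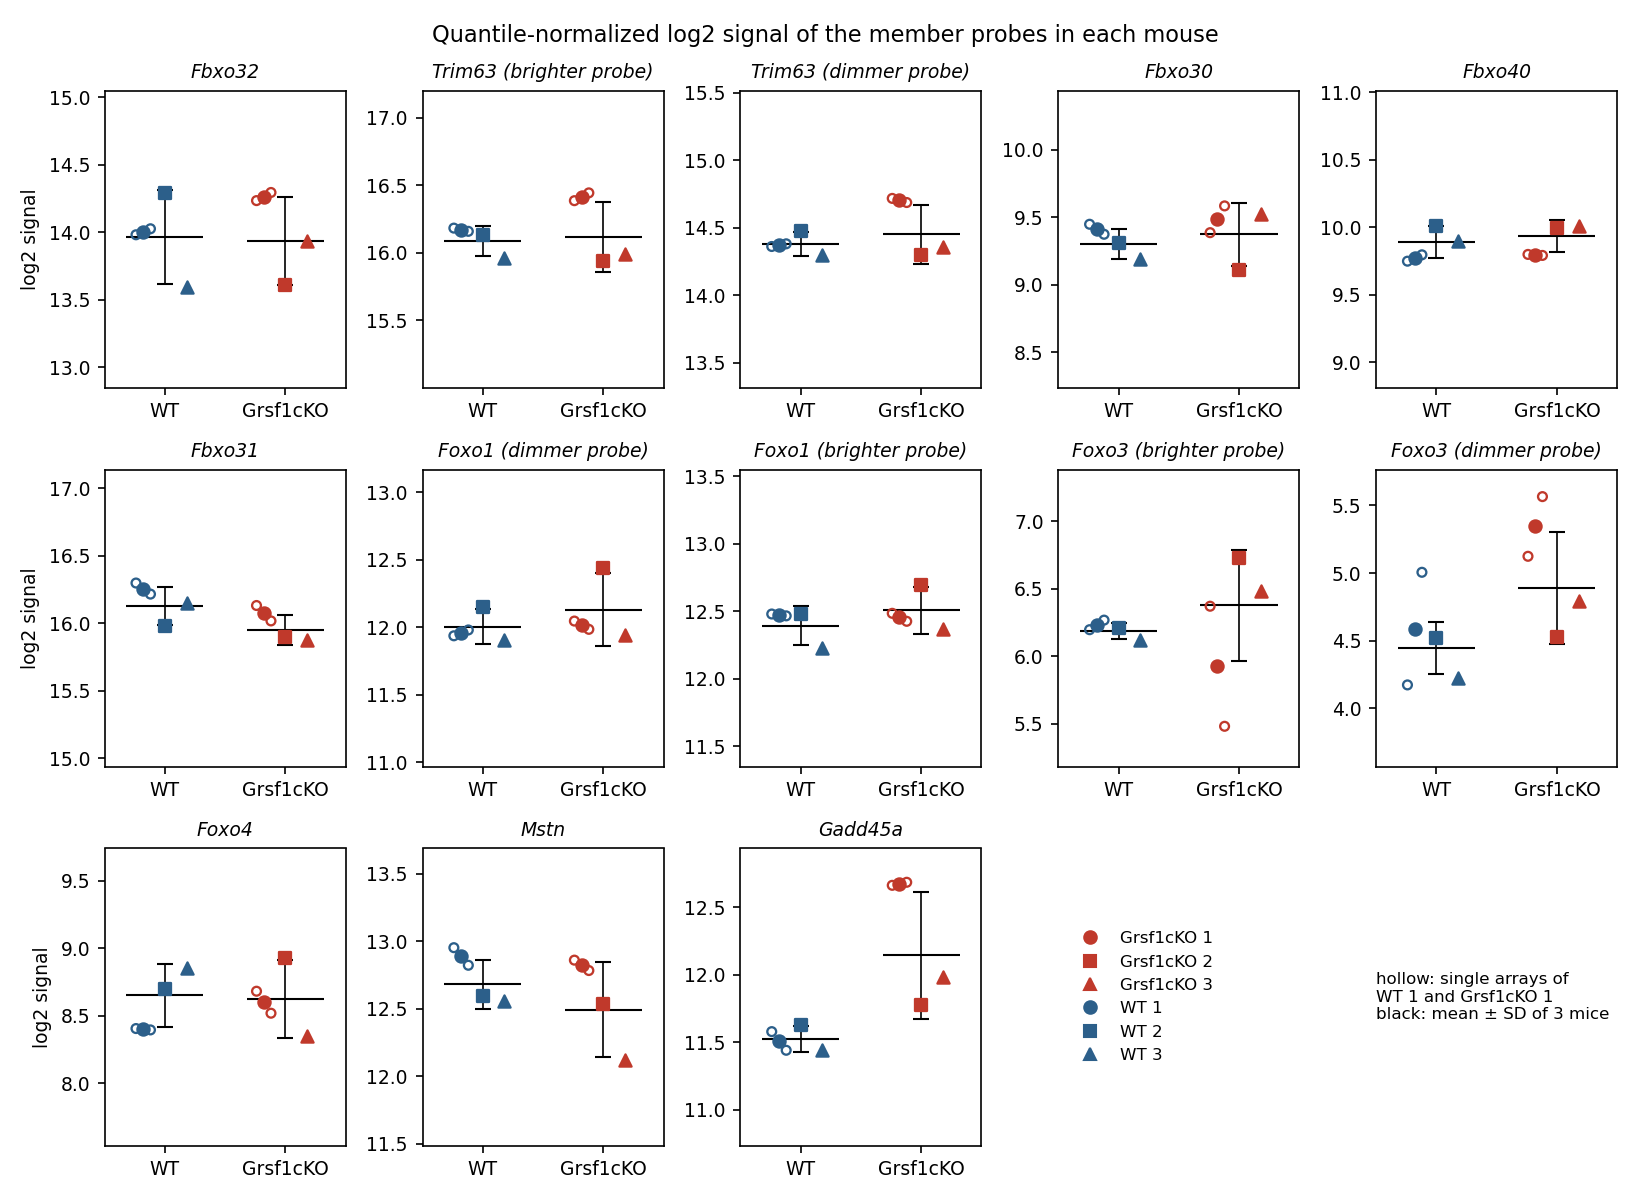
Log2 signal of the 13 member probes in 6 mice, each panel with its own axis of the same span; filled symbols are mice, hollow symbols the single arrays of the mice measured again, and black lines the mean and SD of 3 mice. *Gadd45a* is the panel in which the genotypes separate (11.44 to 11.63 in WT, 11.77 to 12.67 in Grsf1cKO), and the *Foxo3* panels show single arrays of the same RNA far apart.

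Among the FoxO factors, *Foxo1* is the member best known for driving atrophy programs when forced into muscle. Its brighter probe read 12.46, 12.70 and 12.37 in Grsf1cKO 1, 2 and 3, against 12.47, 12.48 and 12.23 in WT 1, 2 and 3. The highest mouse was Grsf1cKO 2 and the lowest was WT 3. The fold change was 0.11 ± 0.13 (SE, log2), and the other probe gave 0.13 ± 0.16, with an adjusted p of 0.996 for both (limma). The 95% interval of the ratio on the brighter probe ran from 0.868 to 1.35.

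*Foxo3*, whose product switches on *Fbxo32* and autophagy genes in atrophying fibers, was the member whose value depended most on single arrays. Its brighter probe read 5.93, 6.73 and 6.48 in Grsf1cKO 1, 2 and 3, against 6.23, 6.21 and 6.12 in WT 1, 2 and 3. Grsf1cKO 2 and 3 were above all WT mice and Grsf1cKO 1 was below all of them. The fold change was 0.19 ± 0.21 (SE, log2; limma, unadjusted p = 0.394, adjusted p = 0.996). The 2 arrays of Grsf1cKO 1 read 6.37 and, on the repeat, 5.48, so that the first lay above all WT mice and the repeat below them. That repeat array is also the one on which 88.9% of probes were called above background.

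With the first array of each mouse only, the *Foxo3* fold change was 0.38 (limma, unadjusted p = 0.0204, adjusted p = 0.992), and without Grsf1cKO 1 it was 0.44 (limma, unadjusted p = 0.0156). Under 75th percentile scaling it was 0.41 (limma, unadjusted p = 0.0218). With the repeat arrays put in place of the first arrays it was 0.03, and without Grsf1cKO 2 it was 0.02. The value thus moved with the choice of arrays and with single mice.

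The dimmer *Foxo3* probe was above background in 3 of the 6 mice. It read 5.34, 4.53 and 4.79 in the Grsf1cKO mice and 4.59, 4.52 and 4.23 in the WT mice, a fold change of 0.45 ± 0.23 (SE, log2; limma, unadjusted p = 0.0993). With first arrays only it was 0.55 and without Grsf1cKO 2 it was 0.62 (limma, unadjusted p = 0.0284 and 0.0322), under 75th percentile scaling 0.67, and with normexp background correction 0.17. Slide 2 alone gave 0.27. Here Grsf1cKO 1 was the highest mouse, the reverse of its place on the brighter probe. Repeat arrays of this probe differed by 0.83 for WT 1 and 0.44 for Grsf1cKO 1, as much as the genotypes did.

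*Foxo4*, a further Akt-regulated factor, read 8.60, 8.93 and 8.35 in Grsf1cKO 1, 2 and 3, against 8.40, 8.70 and 8.85 in WT 1, 2 and 3. Both extremes were Grsf1cKO mice. A fold change of -0.02 ± 0.19 (SE, log2; limma, adjusted p = 0.998) resulted, and its sign changed with 4 of 14 other settings.

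*Mstn* encodes myostatin, the secreted member of the TGF-β family that limits muscle mass. Its signal was 12.82, 12.54 and 12.12 in Grsf1cKO 1, 2 and 3, against 12.89, 12.59 and 12.56 in WT 1, 2 and 3. Grsf1cKO 3 was the lowest mouse, and Grsf1cKO 1 lay between the WT mice. Grsf1cKO minus WT was -0.19 ± 0.20 (SE, log2; limma, adjusted p = 0.996), and without Grsf1cKO 3 it was -0.00064.

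*Gadd45a* encodes a small nuclear stress protein that rises in denervated, fasted and aged muscle. Its log2 signal was 12.67, 11.77 and 11.98 in Grsf1cKO 1, 2 and 3, against 11.51, 11.63 and 11.44 in WT 1, 2 and 3. The Grsf1cKO mice all lay above the WT mice, Grsf1cKO 1 by the widest margin and Grsf1cKO 2 by the narrowest. Both arrays of Grsf1cKO 1 placed it there, since they differed by 0.02. The fold change was 0.62 ± 0.24 (SE, log2), a ratio of 1.53 with a 95% interval from 1.02 to 2.30 (limma, unadjusted p = 0.0412, adjusted p = 0.996). It did not pass the threshold, and the exact permutation test over the mice gave 0.1 (two-sided), which is the smallest p that 3 mice against 3 allow.

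The *Gadd45a* fold change was above 0 in each of the 14 other settings, from 0.59 to 0.74. It was also above 0 in each of the 6 fits without a mouse, from 0.35 without Grsf1cKO 1 to 0.80 without Grsf1cKO 2. Among the 14, other detection filters, an intensity trend, a block for the replicate number and the methods' *z*-test refit the same values. These settings cannot move the fold change. The unadjusted p of *Gadd45a* was 0.0954, 0.0685 and 0.102 without WT 1, 2 and 3, and 0.0525 without Grsf1cKO 3 (limma). Without Grsf1cKO 1 and 2 it was 0.0339 and 0.0156. Slide 1 held only arrays of WT 1 and WT 2, so the slides were not balanced between genotypes. On slide 2 alone, with WT 1, WT 3 and the Grsf1cKO mice, the fold change was 0.70 (limma, unadjusted p = 0.0599).

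**Figure D2:**
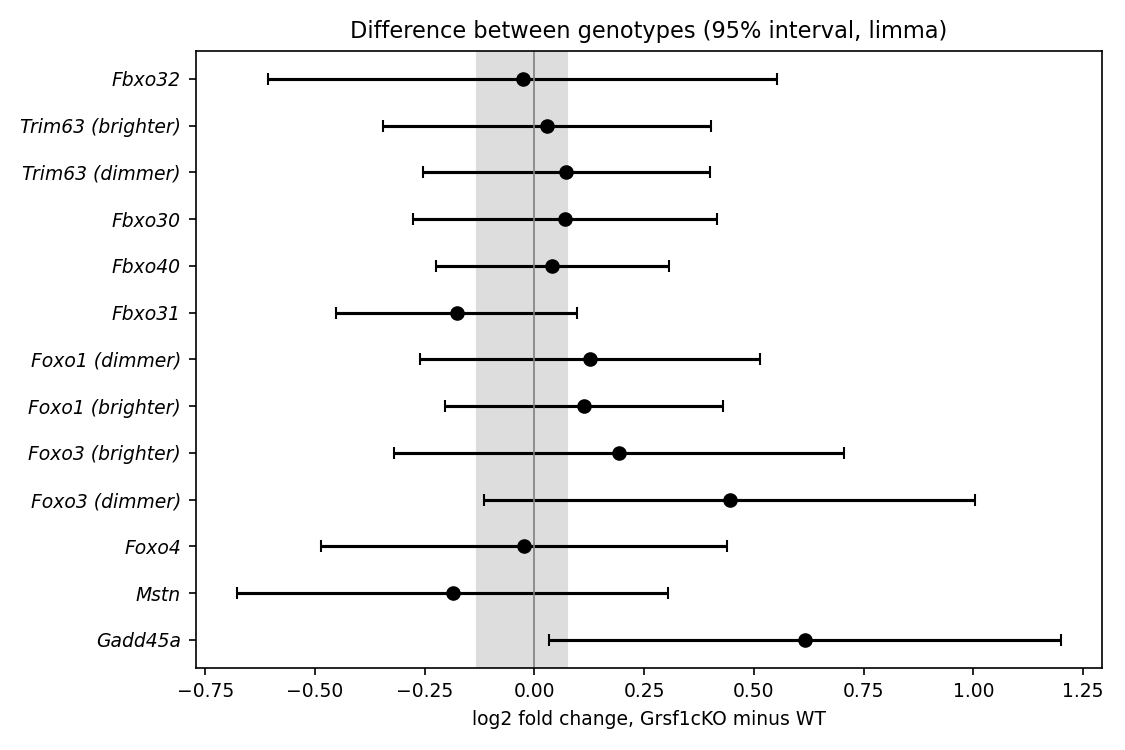
Log2 fold change of each member probe, Grsf1cKO minus WT, with its 95% interval from limma; the grey band spans the middle 50% of all 38888 tested probes, from -0.13 to 0.08. The interval of *Gadd45a* (0.62) lies above 0, and the intervals of the other 12 probes include 0.

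Read as a group, 0 of 13 member probes passed the threshold of a false discovery rate under 0.2 together with an unadjusted p under 0.01 and a change of more than 1.5-fold, where 0.00771% of all tested probes did. At an unadjusted p under 0.05, limma gave 1 of 13 member probes, *Gadd45a*, and 4.25% of all tested probes. The genotypes did not overlap in 1 of 13 member probes and in 9.35% of all probes with a value in every mouse, so the members' share is close to the background. By the methods' *z*-test, run on the same log2 values and with the same threshold, 0 of 13 member probes passed as well, where 0.975% of all tested probes did. The median log2 fold change over the 10 genes, on their brightest probes, was 0.03, and over all 17030 genes it was -0.02.

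**Figure D3:**
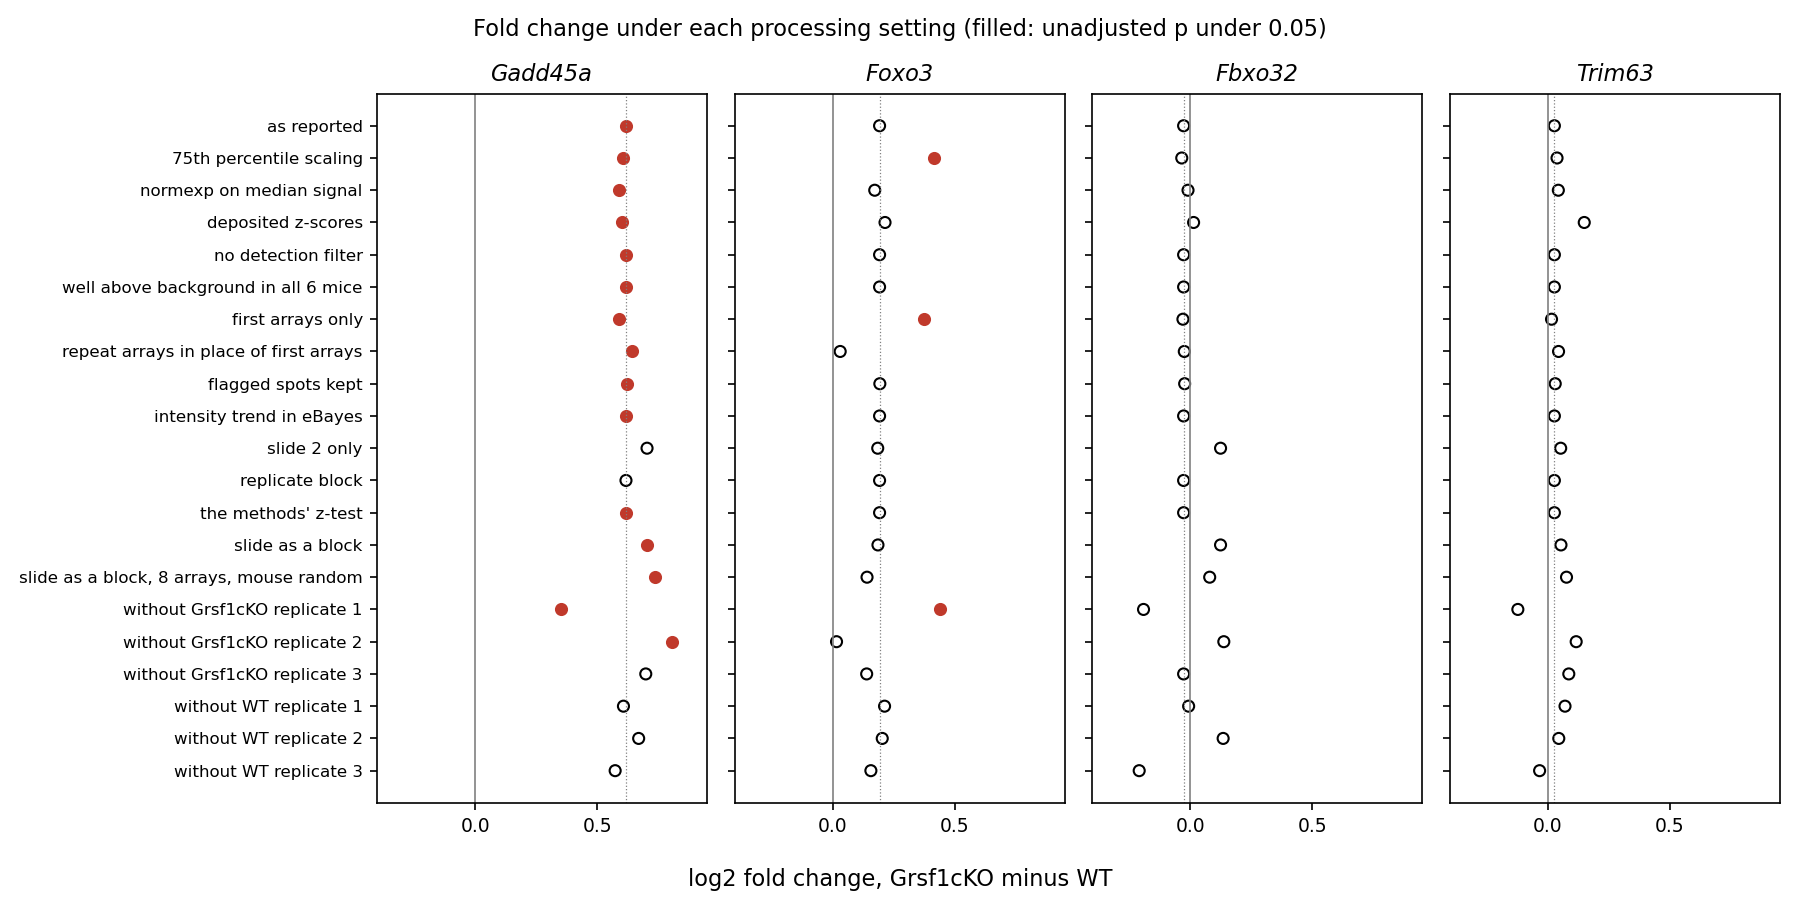
Log2 fold change of *Gadd45a*, *Foxo3*, *Fbxo32* and *Trim63* (brightest probes) as reported and under 20 other settings, with filled points for an unadjusted p under 0.05 and a dotted line at the reported value. *Gadd45a* stays between 0.35 and 0.80, *Foxo3* between 0.02 and 0.44, and *Fbxo32* and *Trim63* fall on both sides of 0.

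Whether mice with more FoxO mRNA also had more ligase mRNA was examined over the 6 mice in 7 relations, with p-values adjusted over the 7. *Fbxo32* and *Trim63* went together most closely, with a Pearson's r of 0.80 (exact permutation p = 0.0514, adjusted p = 0.321) and a Spearman's rho of 0.77 (exact permutation p = 0.103, adjusted p = 0.564). The r was 0.64 without the 2 mice farthest from the median of *Fbxo32* and 0.81 after subtracting the mean of each genotype. The 2 ligase genes were thus ranked much alike in the mice, but the relation did not pass the correction.

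Of the FoxO factors, *Foxo3* had the largest relation with *Trim63*, an r of -0.74 (exact permutation p = 0.0917, adjusted p = 0.321) and a rho of -0.60 (exact permutation p = 0.242, adjusted p = 0.564). It fell to -0.15 without the 2 mice farthest from the median of *Foxo3* and was -0.27 with first arrays only and -0.13 under 75th percentile scaling, so it rests on those mice and was smaller in those settings. After subtracting the mean of each genotype it was -0.84. *Foxo3* with *Fbxo32* gave an r of -0.55 (exact permutation p = 0.254) and a rho of -0.31 (exact permutation p = 0.564). Here r was 0.21 without the 2 farthest mice, -0.29 with first arrays only and -0.03 under 75th percentile scaling. With first arrays only and without the 2 farthest mice, then Grsf1cKO 2 and 3, *Foxo3* had an r of 0.97 with *Trim63* and 0.73 with *Fbxo32*. Under 75th percentile scaling and without Grsf1cKO 2 and WT 3, these were 0.38 and 0.08, so the negative sign was not kept. The r values of *Foxo4* were -0.50 with *Fbxo32* (exact permutation p = 0.306) and -0.35 with *Trim63* (exact permutation p = 0.504), and the rho values were -0.37 and -0.60 (exact permutation p = 0.497 and 0.242). Without the 2 mice farthest from the median of *Foxo4*, here Grsf1cKO 2 and 3, these r values were -0.44 and -0.53. With first arrays only, r was -0.42 and -0.25, and -0.96 and -0.87 without the 2 farthest mice, then Grsf1cKO 3 and WT 1. Under 75th percentile scaling it was -0.44 and -0.38, and -0.94 and -0.88 without those 2 mice. The rho with *Trim63* was -0.83 there (exact permutation p = 0.0583, adjusted p = 0.204).

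*Foxo1* showed little relation with either ligase gene, with an r of 0.04 for *Fbxo32* (exact permutation p = 0.949) and 0.03 for *Trim63* (exact permutation p = 0.960). Its rho was 0.37 with *Fbxo32* (exact permutation p = 0.497) and -0.09 with *Trim63* (exact permutation p = 0.919), and leaving out the 2 mice farthest from its median gave r values of 0.66 and 0.54. With the reported processing, the lowest adjusted p of the 7 relations was 0.321. These are mRNA levels, and the activity of FoxO proteins depends on where they are in the cell, which was not measured.

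The wider pathway was read from 12 gene lists that hold 216 genes besides the members, all of them tested on their brightest probes. None passed the threshold (lowest adjusted p = 0.996 in limma), 5 had an unadjusted p under 0.05 with a higher signal in Grsf1cKO (2.31%) and 0 with a lower one. Over all 17030 genes the same shares were 1.15% higher and 2.28% lower. The 5 genes were *Cdkn1a*, *Fstl3*, *Chrna1*, *Chrnb1* and *Myl2*. The genotypes did not overlap in 19 of the 216 genes, 10 of them higher in Grsf1cKO. This is a share near the 9.35% of all probes without overlap. By the methods' *z*-test, 1 of the 216 genes passed the threshold, *Cdkn1a*, where 0.816% of all genes did, so that this count is near the background. At an unadjusted p under 0.05, the *z*-test gave 14 of the 216 genes higher and 10 lower, and over all genes the shares were 3.63% higher and 7.11% lower. In limma the counts were 10 higher and 1 lower without Grsf1cKO 1, 8 and 0 without Grsf1cKO 2, and 5 and 1 without Grsf1cKO 3. They were 0 higher and 1 lower without WT 1, 3 and 3 without WT 2, and 1 and 3 without WT 3, so that the excess of higher genes was not kept when a WT mouse was left out. Over all genes, 0.769% to 1.91% were higher and 1.97% to 2.99% lower in these 6 fits. With an intensity trend the counts were 14 higher and 4 lower, where the shares of all genes were 1.33% and 2.24%. Normexp background correction gave 10 and 2, where these shares were 1.39% and 2.11%.

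Fold changes were small across the machinery of protein breakdown. None of the 34 proteasome subunit genes had an unadjusted p under 0.05, their median fold change was 0.01 (log2), and the values ran from -0.21 for *Psme4*, an activator of the proteasome, to 0.17 for *Psmc4*, a subunit of its base. In 19 of the 34 genes Grsf1cKO 1 was the highest mouse and in 11 it was WT 1. These are the mice measured on repeat arrays, and any part of that in their rank was not tested. The 18 genes for ubiquitin and its conjugating and removing enzymes had a median of 0.03, between -0.22 for *Ube2g1*, a conjugating enzyme, and 0.16 for *Usp19*, a deubiquitinase.

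The 5 genes of the SCF core, which carries F-box proteins such as atrogin-1, had a median fold change of -0.02 (log2). *Rbx1*, the RING subunit of that complex, read 15.72, 15.77 and 15.71 in Grsf1cKO 1, 2 and 3, against 15.60, 15.66 and 15.70 in WT 1, 2 and 3, a fold change of 0.08 at an unadjusted p of 0.360 in limma. *Cacybp*, a partner of SKP1, had a fold change of -0.10. The MuRF relatives *Trim55* and *Trim54* had fold changes of 0.28 and -0.04 at unadjusted p-values of 0.331 and 0.712 (limma). Without WT 1, *Trim55* was at -0.0054. Among 22 other muscle ubiquitin ligase genes the median was -0.03 and none had an unadjusted p under 0.05, with *Nedd4* at -0.33 and *Fbxl21* at 0.26 as the widest values. *Nedd4* ran from -0.16 without WT 3 to -0.58 without WT 2 (limma, unadjusted p = 0.0246), and had 0.0402 with the replicate block. *Fbxl21* ran from 0.09 without Grsf1cKO 3 to 0.46 without Grsf1cKO 1 (limma, unadjusted p = 0.0304). Under 75th percentile scaling it was 0.55 (limma, unadjusted p = 0.0174).

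Of 20 autophagy genes under FoxO, none had an unadjusted p under 0.05, and the median fold change was -0.01 (log2). *Atg5*, needed to build autophagosomes, was lower in every Grsf1cKO mouse (12.40, 12.33 and 12.16) than in any WT mouse (12.53, 12.45 and 12.42), a fold change of -0.17 (limma, unadjusted p = 0.133).

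Of 20 other FoxO targets, 1 had an unadjusted p under 0.05 and the median fold change was -0.00090 (log2). It was *Cdkn1a*, which encodes the cell-cycle inhibitor p21. Its signal was 12.09, 11.83 and 12.42 in Grsf1cKO 1, 2 and 3, against 11.26, 11.74 and 11.49 in WT 1, 2 and 3, with no overlap. This is a fold change of 0.61 ± 0.19 (SE, log2; limma, unadjusted p = 0.0199, adjusted p = 0.996), about the size found for *Gadd45a*. Without Grsf1cKO 1, 2 and 3 the unadjusted p of *Cdkn1a* was 0.0422, 0.0109 and 0.0502 (limma). Without WT 1, 2 and 3 it was 0.0642, 0.0158 and 0.0501. The methods' *z*-test gave *Cdkn1a* an adjusted p of 0.136, under the false discovery rate of 0.2, and 0.816% of all genes passed the threshold in that test. The mouse ranked highest was Grsf1cKO 3 for *Cdkn1a* and Grsf1cKO 1 for *Gadd45a*.

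Of 29 genes of Akt signaling, none had an unadjusted p under 0.05, the median fold change was -0.05 (log2) and 19 were below 0. Over all 17030 genes the median was also below 0, at -0.02. *Irs1*, the adaptor of the insulin receptor, had a fold change of -0.26 (limma, unadjusted p = 0.173), and -0.13 without WT 1 or without Grsf1cKO 3. *Igf2*, a growth factor of developing and regenerating muscle, read 12.71 in Grsf1cKO 3 and 10.25 to 10.95 in the other 5 mice.

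Of 29 genes of myostatin and BMP signaling, 1 had an unadjusted p under 0.05 and the median fold change was -0.02 (log2). It was *Fstl3*, which encodes a follistatin-like protein that binds myostatin and activins. Its signal was 9.46, 9.43 and 9.23 in Grsf1cKO 1, 2 and 3, against 9.03, 9.13 and 9.17 in WT 1, 2 and 3. The genotypes did not overlap, and the fold change was 0.26 ± 0.10 (SE, log2; limma, unadjusted p = 0.0388, adjusted p = 0.996). With first arrays only it was 0.14 (limma, unadjusted p = 0.336), with slide as a block the unadjusted p was 0.0730 and with the replicate block 0.0791. Without Grsf1cKO 1, 2 and 3 the unadjusted p was 0.114, 0.113 and 0.0202 (limma). Without WT 1, 2 and 3 it was 0.101, 0.071 and 0.0559, and with the deposited *z*-scores 0.154.

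**Figure D4:**
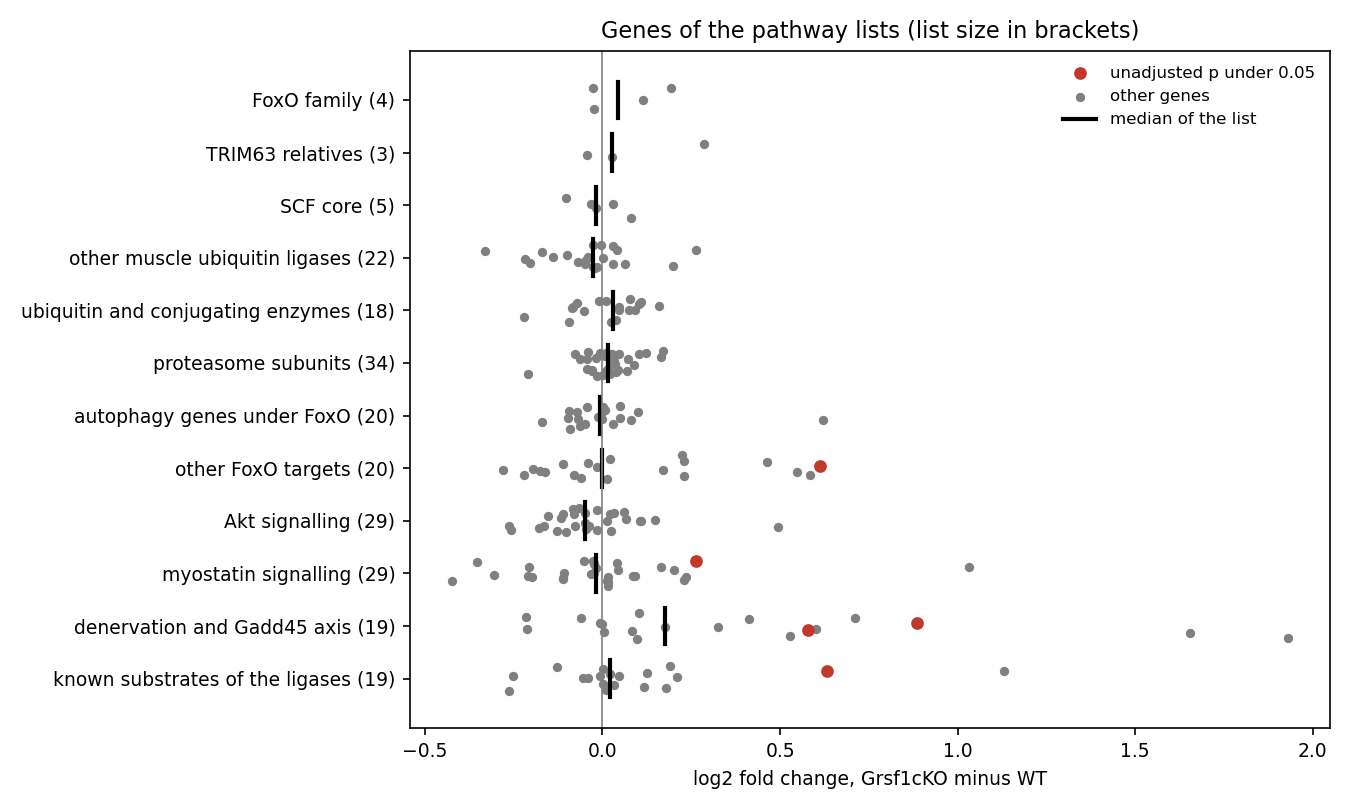
Log2 fold change of each gene in 12 pathway lists, with the number of genes in brackets, red for an unadjusted p under 0.05 and a black bar for the median. The lists of the FoxO family and of the MuRF relatives include members; list medians lie between -0.05 and 0.04 except for the denervation list at 0.18.

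The denervation list holds 19 genes that respond to loss of the nerve or act with *Gadd45a*. It had the highest median of the 12, a fold change of 0.18 (log2), where the median over all 17030 genes was -0.02. Of the 19 genes, 14 were above 0. The 2 with an unadjusted p under 0.05 encode subunits of the acetylcholine receptor at the neuromuscular junction. *Chrna1* read 13.22, 12.79 and 14.04 in Grsf1cKO 1, 2 and 3, against 12.30, 12.56 and 12.52 in WT 1, 2 and 3, a fold change of 0.89 ± 0.32 (SE; limma, unadjusted p = 0.0311, adjusted p = 0.996). *Chrnb1* read 9.91, 10.07 and 10.55 against 9.42, 9.74 and 9.63, a fold change of 0.58 ± 0.19 (SE; limma, unadjusted p = 0.0221, adjusted p = 0.996). Neither gene had an overlap between genotypes, and they are among 19 such genes of the 216 in all lists.

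Grsf1cKO 3 was the highest mouse in 11 of these 19 genes, against 38 of the 216 genes of all lists. The genes named next were chosen after their values were seen. *Myh3*, the embryonic myosin, read 15.30 in Grsf1cKO 3 and 9.85 to 10.28 in the other 5 mice. *Chrng*, the fetal receptor subunit, read 11.36 in Grsf1cKO 3 and 5.61 to 7.15 in the others, and *Myog*, which encodes the differentiation factor myogenin, read 11.31 against 9.14 to 9.33.

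Without Grsf1cKO 3 the median of the denervation list was 0.06 (log2). *Chrna1* was then at 0.54 and *Chrnb1* at 0.39, with unadjusted p-values of 0.0255 and 0.0338 (limma), and *Gadd45a* was at 0.70 with 0.0525. Without WT 1, 2 and 3, *Chrna1* was at 0.81, 0.94 and 0.91, with unadjusted p-values of 0.0913, 0.0599 and 0.0628 (limma). *Chrnb1* was at 0.48, 0.65 and 0.59, with 0.0733, 0.0318 and 0.0486. The paralogs of *Gadd45a* had smaller differences, as *Gadd45b* had a fold change of 0.10 and *Gadd45g* of 0.08. *Gadd45g* was lowest in Grsf1cKO 3, at 14.58 against 15.35 to 16.27, so leaving out that mouse would raise its fold change.

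**Figure D5:**
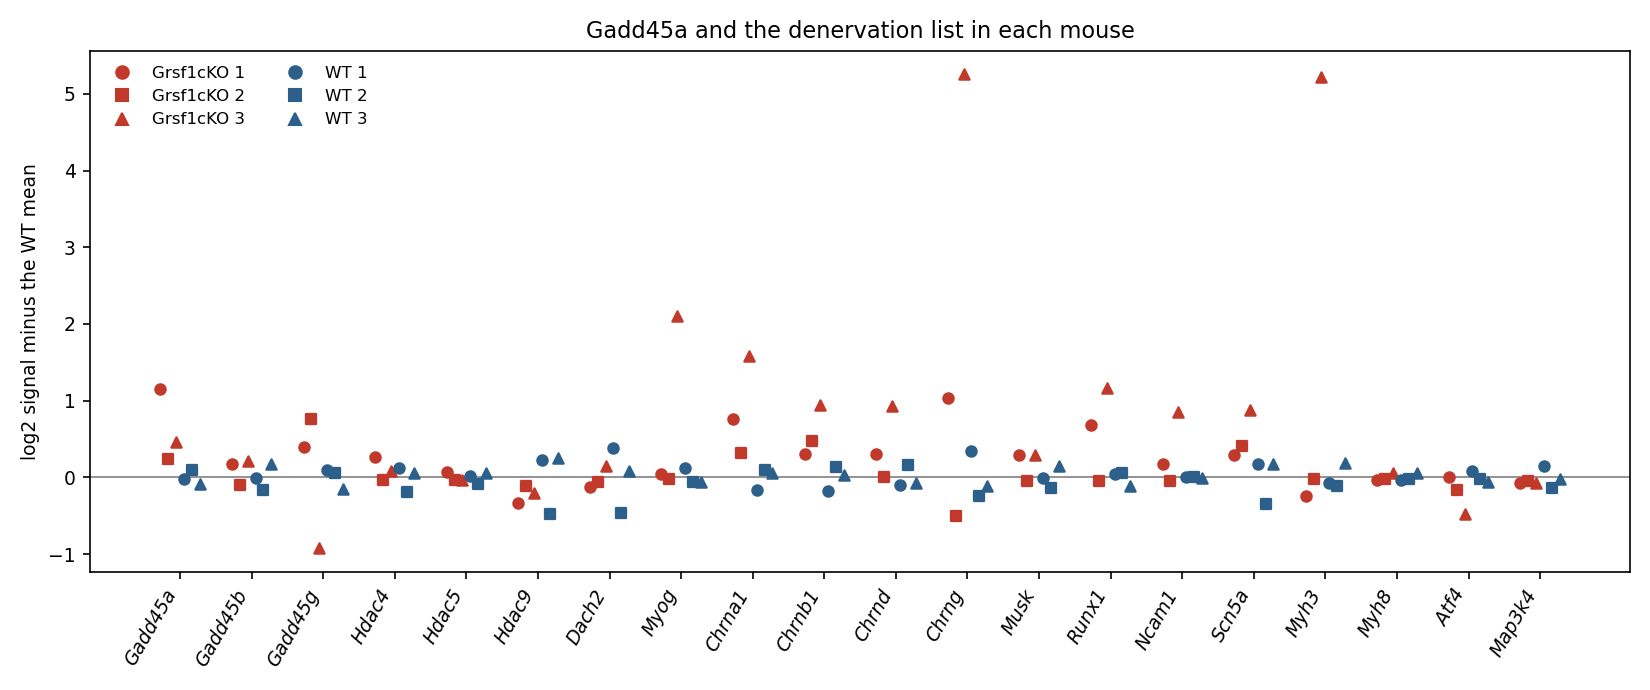
Log2 signal of *Gadd45a* and of the 19 genes of the denervation list in each mouse, minus the mean of the 3 WT mice. *Gadd45a* is highest in Grsf1cKO 1, while *Myog*, *Chrng* and *Myh3* stand out in Grsf1cKO 3.

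Of 19 genes whose products are known substrates of these ligases, 1 had an unadjusted p under 0.05 and the median fold change was 0.02 (log2). It was *Myl2*, the slow regulatory light chain of the thick filament, which read 13.46, 13.48 and 14.36 in Grsf1cKO 1, 2 and 3, against 13.12, 13.23 and 13.04 in WT 1, 2 and 3. The fold change was 0.63 ± 0.26 (SE; limma, unadjusted p = 0.0489, adjusted p = 0.996), and without Grsf1cKO 3 it was 0.34. Its unadjusted p was 0.0317, 0.0379 and 0.0247 without Grsf1cKO 1, 2 and 3 (limma). Without WT 1, 2 and 3 that p was 0.107, 0.0790 and 0.117. With slide as a block the unadjusted p was 0.0607 and with the replicate block 0.0692, so neither *Myl2* nor *Fstl3* stayed under 0.05 in those fits.

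Markers of slow fibers and macrophages moved with Grsf1cKO 3. The summed linear signal of 8 slow fiber markers ran from 236925 to 306155 in Grsf1cKO mice and from 230380 to 247981 in WT mice, and 7 of the 8 were highest in Grsf1cKO 3. All 7 macrophage markers were highest in Grsf1cKO 3, with a sum of 41453 there and 21046 to 25419 in the other 5 mice, and 0 of 7 had an unadjusted p under 0.05 (limma). Fast fiber markers summed to 3636750 to 3720120 in Grsf1cKO and 3667110 to 3694770 in WT mice. Of the fibroblast markers, 3 of 5 were highest in Grsf1cKO 3, and all 5 had a fold change above 0, with a median of 0.21. For endothelial markers it was 1 of 5 and for satellite cell markers 1 of 4. Among adipocyte, smooth muscle, and nerve and Schwann markers it was 0 of 6, 0 of 3 and 0 of 4. The part of these cells in the values of *Gadd45a*, *Chrna1*, *Chrnb1*, *Cdkn1a* and *Myl2* was not tested.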

How the data were processed

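RNA of 6 mice was hybridized to 8 Agilent arrays. The authors deposited, for each array, the spot intensities and the 0 or 1 flags from Feature Extraction (Agilent, version 12.0.3.1), corrected for background on each array but not normalized between arrays, and a table of scores, which are *z*-scores of the log2 signal within each array. The table matched *z*-scores computed from the arrays within 0.005. The processed signal was used here. Controls were dropped, and non-uniform and outlier spots were treated as missing. After quantile normalization of the arrays, the mean log2 signal was taken over spots, then over arrays, to give 1 value per probe and mouse. Tests covered probes detected well above background in 3 or more of 6 mice with a value in 2 or more per genotype. The test was limma 3.58.1 (R 4.3.3) with a single term for genotype. P-values were adjusted over all tested probes by the Benjamini-Hochberg method. No non-control spot was saturated.

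For the probes, a RefSeq table (GRCm38.p6) gave gene names from accessions and nothing else, since the array annotation is of mm9. The promoter windows are RefSeq sequences of the same build. For a gene outside the members, the brightest probe was used. Named were all members and, of each pathway list, the genes with an unadjusted p under 0.05 and otherwise the 2 with the largest fold change, and *Grsf1*. The values of 1 gene under this rule are not reported here. Members and lists were chosen with earlier results of these data known, so their counts are descriptions. Each member probe was also tested by exact permutation over mice. Alternatives covered normalization, background, *z*-scores, filters, repeat arrays, slide, an intensity trend, the methods' *z*-test, the replicate number and each mouse left out. The *z*-test used log2 values and a fold threshold, without the *z*-ratio, ANOVA and average expression criteria of the methods. The fit was tested on simulated data. Labels give 3 mice per genotype, so p-values measure the spread between these mice. Fold changes the authors reported were not used.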

Additional observations from a re-analysis of the deposited data

How the results depend on the processing

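No member probe passed the threshold in any of the 20 other settings. Of 256 values of member probes under these settings, 236 kept their sign and 20 changed it, in genes whose reported fold change was within 0.13 of 0. Other detection filters, the intensity trend, the replicate block and the methods' *z*-test leave the fold change as it was. Their values among the 236 thus do not test the sign. For *Foxo4* the fold change was 0.011 with 75th percentile scaling, 0.0013 with first arrays only, 0.0010 on slide 2 only and 0.0013 with slide as a block. *Fbxo32* was at 0.014 with the deposited *z*-scores, 0.12 on slide 2 only, 0.12 with slide as a block and 0.080 in the fit of 8 arrays with the mouse as a random block, a fit chosen after seeing the data. With *z*-scores *Fbxo30* was at -0.0071 and *Fbxo40* at -0.021. In the slide block fit WT 1 enters once for each slide.

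Leaving out a mouse gave ranges of -0.21 to 0.14 for *Fbxo32*, -0.12 to 0.12 and -0.055 to 0.15 for the probes of *Trim63*, -0.0068 to 0.20 for *Fbxo30*, -0.018 to 0.11 for *Fbxo40*, -0.027 to 0.22 for the dimmer *Foxo1* probe and -0.17 to 0.11 for *Foxo4*. The number of member probes with an unadjusted p under 0.05 ranged from 0 to 2 without a mouse, and the number without overlap from 1 to 4, while over all probes the share without overlap was 17.4% to 20.6% in those fits. The first number was 2 with 75th percentile scaling, 3 with first arrays only, 0 on slide 2 only and 0 with the replicate block, where 3.31%, 4.08%, 4.12% and 6.2% of all probes had such a p. The second was 2 with 75th percentile scaling, 2 with normexp, 3 with first arrays only and 2 on slide 2 only, where 8.18%, 9.55%, 9.14% and 20.4% of all probes did not overlap. Over all probes, the methods' *z*-test called 98 higher and 281 lower, against 1 and 2 in limma.

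With the replicate number as a replicate block, *Gadd45a* had the same fold change at an unadjusted p of 0.0518. Mice that share a number had correlated deviations of 0.23, 0.10 and 0.10, and the labels do not say that a number marks a shared litter or day, so the numbers were not taken as pairs. In the lists, first arrays only gave 1 gene for the FoxO family and 2 for myostatin signaling, and 75th percentile scaling gave 1, 2, 1 for the other ligases and 0 for the substrates. Both gave 3 for the denervation list, against 2. The r of *Foxo1* with *Fbxo32* and *Trim63* was -0.042 and -0.26 with 75th percentile scaling. The dimmer *Foxo3* probe was not above background in every mouse, which limits its values.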
